A study of Rattus norvegicus with 20 samples.

Results

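Cytochrome P450 enzymes are the heme-containing oxidases with which hepatocytes hydroxylate drugs, carcinogens, steroids and fatty acids. They were followed here in rat hepatocarcinogenesis, in every gene whose probe annotation carries a symbol of the form Cyp followed by a digit. Cyp2c11, Cyp2c12, Cyp7a1, Cyp7b1, Cyp8b1, Cyp27a1 and Cyp51 were left out by that rule, which used no measured value. It gave 59 genes of the 13337 that the annotation names, with 62 probes, and the brightest probe stood for each gene. Of the 59 genes, 37 had a signal above 200 on at least 5 of the 20 arrays and were tested together with 6102 genes in all. The other 22 were not tested and are listed at the end of the gene families.

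The arrays covered early preneoplastic foci (EPFs), nodules positive (CK-19-positive, written CK-19+) or negative (CK-19-negative, written CK-19-) for cytokeratin-19, and control liver, with 5 arrays of each. All lesions came from male Fischer rats of the Resistant-Hepatocyte (R-H) protocol, in which the carcinogen diethylnitrosamine (DENA) is followed by a diet with 2-acetylaminofluorene (2-AAF) and by partial hepatectomy (PH). EPFs were collected 7 days past PH, which was 4 weeks after DENA, and an EPF array held a pool of foci. Nodules were taken 7 weeks after PH, 10 weeks after DENA, 1 nodule to an array, and were classed by staining for cytokeratin-19, a cytoskeletal protein of bile duct and oval cells. All tissue was laser-microdissected, and the control arrays held random areas of liver, given as age-matched, whose cell type the labels name as hepatocytes. The main methods describe those areas as liver of rats that went through the protocol and the supplementary methods as normal liver, so that the carcinogen exposure of the controls is not settled. The labels give no time for this single control group, which served for both EPFs and nodules. A match to both ages can therefore not be checked. 2-AAF feeding ended at about the time the EPFs were taken, so that recent 2-AAF and PH cannot be told apart from the kind of lesion in any EPF value. Each rat may have given tissue to more than 1 array, since no label ties an array to a rat, and the p-values measure the spread between arrays.

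The array signals were quantile-normalized by the authors, with a median between 157.0 and 157.5 on each array, and between 7370 and 7383 probes above 200. The 5 EPF arrays shared a chip of their own, so that EPFs and chip cannot be told apart. Krt19, which encodes CK-19, read 4054 ± 2066 in CK-19+ nodules and 535 ± 402 in CK-19- nodules (mean ± SD, n = 5 each), with 614 ± 298 in EPFs and 224 ± 17.7 in control livers. None of the 5 tested hepatocyte markers was called in any of the 6 comparisons. Without the 2-fold limit of a call, 3 were higher in CK-19+ nodules than in control liver at an adjusted p under 0.05 (23.4% of all genes). In EPFs 1 was lower than in control liver (27.7%). The summed signal of the 5 markers was 145443 to 169410 in EPFs, 176866 to 196114 in CK-19+ nodules, 163837 to 197332 in CK-19- nodules and 112200.0 to 190386 in control livers. The 6 biliary and oval cell markers summed to 2571 to 5510 in EPFs, 8270 to 14814 in CK-19+ nodules, 1362 to 3941 in CK-19- nodules and 1222 to 1475 in control livers. Red blood cell markers (4 genes) summed to 5633 to 7050 in EPFs, 6349.6 to 12928 in CK-19+ nodules, 8082 to 20364 in CK-19- nodules and 24968 to 50217 in control livers. The part of admixed cells in the P450 values below was not tested, and fewer hepatocytes and less RNA per hepatocyte cannot be told apart in such tissue.

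In the liver, P450 enzymes sit in the endoplasmic reticulum and receive electrons from P450 oxidoreductase (Por) and cytochrome b5. Families CYP1, CYP2 and CYP3 mainly oxidise foreign compounds and steroids, and CYP4 mainly hydroxylates fatty acids at their end. Transcription of many of them is set by nuclear receptors such as the pregnane X receptor, the constitutive androstane receptor and PPAR alpha, and that of the CYP1 genes by the aryl hydrocarbon receptor. The rats' own carcinogens are P450 substrates, since CYP2E1 activates DENA and CYP1A2 hydroxylates 2-AAF at its nitrogen. Several rat genes are also sex-dependent, with Cyp2a2, Cyp2c13, Cyp3a2 and Cyp3a18 higher in male liver and Cyp2a1, Cyp2c7 and Cyp3a9 higher in female liver.

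The start regions of 6 genes are shown as a description, and no result below depends on them. They are the neighbouring pairs Cyp4a2 and Cyp4a3, and Cyp3a2 and Cyp3a23-3a1, then Cyp1a2 and, as a gene lower in EPFs without the half-site, Cyp2t1. Sequences are those of RefSeq on build GRCr8, 250 bases before to 50 after the gene start and in the direction of transcription: Cyp4a2 at chr5:134170859-134171158 (minus strand), Cyp4a3 at chr5:134352187-134352486 (minus strand), Cyp3a2 at chr12:14343808-14344107 (minus strand), Cyp3a23-3a1 at chr12:14398754-14399053 (minus strand), Cyp1a2 at chr8:66978100-66978399 (minus strand) and Cyp2t1 at chr1:91575260-91575559 (plus strand). Capitals mark AGGTCA, the half-site that such nuclear receptors bind in pairs, on either strand (TGACCT on the other strand). No window shown held a pair of these exact half-sites, and variants of the letters were not searched for.
Cyp4a2: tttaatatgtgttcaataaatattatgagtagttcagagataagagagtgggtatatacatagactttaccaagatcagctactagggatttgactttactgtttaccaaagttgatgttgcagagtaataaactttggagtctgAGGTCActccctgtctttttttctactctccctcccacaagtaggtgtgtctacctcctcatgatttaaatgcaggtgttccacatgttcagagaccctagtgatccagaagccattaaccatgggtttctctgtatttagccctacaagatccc
Cyp4a3: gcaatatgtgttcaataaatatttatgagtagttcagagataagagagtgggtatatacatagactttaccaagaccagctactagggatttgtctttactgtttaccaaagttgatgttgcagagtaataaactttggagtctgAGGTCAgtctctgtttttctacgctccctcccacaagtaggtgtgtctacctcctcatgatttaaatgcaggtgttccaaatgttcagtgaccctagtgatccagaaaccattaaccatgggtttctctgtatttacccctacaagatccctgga
Cyp3a2: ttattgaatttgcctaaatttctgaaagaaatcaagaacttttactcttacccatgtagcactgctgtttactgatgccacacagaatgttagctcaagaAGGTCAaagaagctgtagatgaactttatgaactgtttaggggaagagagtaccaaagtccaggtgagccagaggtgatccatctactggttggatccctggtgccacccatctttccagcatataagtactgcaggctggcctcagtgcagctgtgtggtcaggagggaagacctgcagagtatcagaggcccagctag
Cyp3a23-3a1: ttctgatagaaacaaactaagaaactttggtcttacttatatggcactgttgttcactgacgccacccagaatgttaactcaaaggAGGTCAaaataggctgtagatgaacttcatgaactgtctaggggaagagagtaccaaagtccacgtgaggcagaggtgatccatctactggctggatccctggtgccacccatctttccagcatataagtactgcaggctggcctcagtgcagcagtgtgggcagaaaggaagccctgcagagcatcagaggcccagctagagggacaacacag
Cyp1a2: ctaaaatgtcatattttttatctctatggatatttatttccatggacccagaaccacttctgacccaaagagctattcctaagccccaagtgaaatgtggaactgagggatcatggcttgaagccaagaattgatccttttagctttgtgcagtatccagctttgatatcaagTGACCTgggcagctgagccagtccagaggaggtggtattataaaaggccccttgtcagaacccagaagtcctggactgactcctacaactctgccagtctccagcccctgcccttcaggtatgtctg
Cyp2t1: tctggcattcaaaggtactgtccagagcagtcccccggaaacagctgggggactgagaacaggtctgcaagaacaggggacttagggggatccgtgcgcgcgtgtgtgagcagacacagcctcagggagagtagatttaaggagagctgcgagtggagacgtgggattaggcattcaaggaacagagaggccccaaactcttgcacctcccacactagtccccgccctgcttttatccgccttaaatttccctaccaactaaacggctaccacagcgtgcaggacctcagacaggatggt

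A global alignment paired 295 of the 300 bases of Cyp4a2 and Cyp4a3, of which 284 were identical, and both held AGGTCA 105 bases before the start. Cyp3a2 and Cyp3a23-3a1 had 254 identical bases among 285 aligned, with the half-site at position -150 in Cyp3a2 and -164 in Cyp3a23-3a1. Cyp1a2 held it at -77 on the other strand, and the Cyp2t1 window had none. AGGTCA was present in 11 of the 32 tested members with a window, against 15.7% of 27457 windows of this length. Among the 11 were Cyp2c22, Cyp2e1, Cyp2r1 and Cyp4f40, which were not called against control. Cyp2c13, Cyp2d1, Cyp2d5 and Cyp2j3 were called lower in EPFs and had none. The core of the aryl hydrocarbon receptor's site, GCGTG, was present in 8 of 32 (31.1% of all windows) and TATAAA in 11 of 32 (14.3%), each searched on both strands. No window was used for Cyp1a1, Cyp17a1, Cyp2a2, Cyp4a1 and Cyp4f4. A match of letters is a description of the window and not a measured site. Probe sequences were not used here, so that a probe of 1 gene may also read its close neighbours, such as Cyp4a2 and Cyp4a3 on chromosome 5 or the Cyp3a genes on chromosome 12.

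The tested P450 genes were mostly lower in EPFs and CK-19+ nodules and near control liver in CK-19- nodules. They may not be the whole family, since 8730 of the 22523 probes carry no gene name. The paper lists Cyp2c40, a symbol that no member has, among the most up-regulated genes of EPFs and of CK-19+ nodules. In EPFs against control liver, 19 of the 37 tested members fell and 2 (Cyp17a1 and Cyp1a1) rose, Cyp1a1 being among the tested genes only through its EPF signals, with a call meaning at least 2-fold and an adjusted p under 0.05 by limma. Over all 6102 genes tested, 6.15% were called lower and 6.26% higher. Among all genes 12.4% were called in either direction. In CK-19+ nodules 15 fell and none rose, with 4.9% of all genes lower, 4.95% higher and 9.85% either, and at an unadjusted p under 0.05 there were 28 lower and 4 higher members. In CK-19- nodules 1 fell (Cyp3a9) and none rose, where 0.656% of all genes were lower, 1.29% higher and 1.95% either, and at an unadjusted p under 0.05 there were 6 lower and 4 higher. The median log2 fold change of the tested members was -1.05 in EPFs, -0.81 in CK-19+ nodules and -0.03 in CK-19- nodules, against -0.02, -0.01 and -0.00 for all genes. These 3 comparisons share their control arrays.

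**Figure D1:**
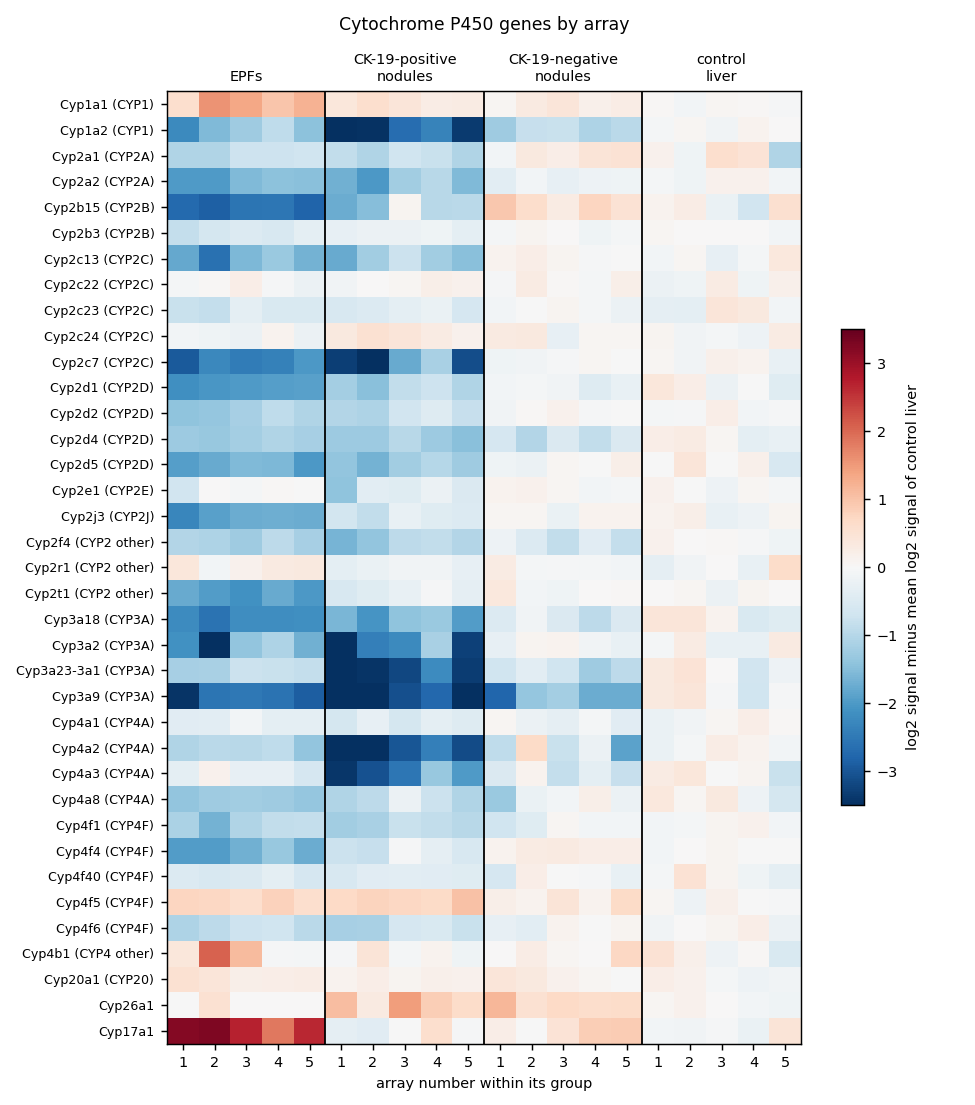
Heat map of the 37 tested P450 genes (rows, by subfamily) on the 20 arrays (columns, 5 per group); colour gives log2 signal minus the mean log2 signal of control liver, cut at 3.5 on either side. Most rows are blue in EPFs and CK-19+ nodules, with Cyp17a1 red in the 5 EPF arrays, and pale in CK-19- nodules apart from rows such as Cyp3a9.

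The same shift was visible on single arrays. The members' median distance from the control mean was -1.09 to -0.86 on the EPF arrays, -1.06 to -0.53 on the arrays of CK-19+ nodules, -0.10 to 0.04 on those of CK-19- nodules and -0.09 to 0.06 on control arrays, whereas that of all genes lay between -0.03 and 0.02 on every array. All 5 EPF arrays were below all 5 control arrays for 22 of 37 members (19.6% of all genes) and above them for 3 (21.9%). For CK-19+ nodules these numbers were 21 (14.5%) and 3 (16.6%), and for CK-19- nodules 4 (4.28%) and 2 (6.21%). An exact two-sided permutation test of 5 against 5 arrays gives such a member p = 0.00794, the smallest it can give. Of the members above control, Cyp1a1, Cyp26a1 and Cyp4f5 entered the tested genes through lesion arrays, so that this p is no support for them. The same holds for Cyp4f40, below control in CK-19+ nodules, which entered through arrays of control livers and CK-19- nodules.

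The CYP1 pair, both targets of the aryl hydrocarbon receptor, moved in opposite directions in EPFs. Cyp1a2 read 1371, 2188, 2696, 3446 and 2372 in EPFs, 397, 585, 1004, 1279 and 630.2 in CK-19+ nodules, 2724, 3659, 3766, 3033 and 3326 in CK-19- nodules, against 6118, 6733, 5946, 6969 and 6433 in control livers. CK-19+ nodules lay below all other groups, EPFs and CK-19- nodules overlapped, and all lesions were below control liver. It fell 2.78-fold in EPFs (log2 fold change -1.48 ± 0.24 SE, adjusted p = 1.75e-05) and 8.98-fold in CK-19+ nodules (-3.17 ± 0.24 SE, adjusted p = 4.01e-10), while the value of -0.97 ± 0.24 (SE, adjusted p = 0.00745) in CK-19- nodules was just short of 2-fold and passed it without CK-19- nodule 2 or 3 (-1.01 and -1.02). Cyp1a1, which oxidises polycyclic aromatic hydrocarbons, read 208, 412, 349, 267 and 318 in EPFs, 182, 208, 184, 164 and 166 in CK-19+ nodules, 144, 171, 185, 156 and 165 in CK-19- nodules, against 140.4, 127, 145, 142 and 132 in control livers. Every EPF array was above 200 and every control array below it, so that the rise was at least 1.51-fold with control set to 200 (log2 fold change as measured 1.14 ± 0.13 SE, adjusted p = 1.75e-07). The call was lost when 50 was added to each signal (0.92) or signals under 300 were raised to 300 (0.15). Cyp1a1 was just inside the signal limit, with 6 arrays above 200, as was Cyp4f40 with 7. The 6 were the 5 EPF arrays and CK-19+ nodule 2, so that Cyp1a1 entered the tested genes through EPFs, and its rise there is a description.

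Among the CYP2A and CYP2B genes, which lie next to each other on chromosome 1, Cyp2a2 and Cyp2b15 fell in each of EPFs and CK-19+ nodules. Cyp2a2, a steroid hydroxylase of male liver, read 6223, 6141, 8331, 9039 and 8930.1 in EPFs, 7619, 6075, 10522, 12531 and 8415 in CK-19+ nodules, 18818, 22996, 19975, 21675 and 22156 in CK-19- nodules, against 23426, 22017, 27334, 27214 and 22996 in control livers. EPFs and CK-19+ nodules overlapped each other and stayed below every array of the other groups, with log2 fold changes of -1.68 ± 0.15 (SE, adjusted p = 5.87e-09) in EPFs and -1.49 ± 0.15 (SE, adjusted p = 5.90e-08) in CK-19+ nodules, and -0.22 ± 0.15 (SE, adjusted p = 0.384) in CK-19- nodules. Cyp2a1 read 792, 802, 1001, 1008 and 1010.3 in EPFs, 917, 791, 1024, 959 and 802 in CK-19+ nodules, 1534, 2108, 1926, 2254 and 2339 in CK-19- nodules, against 1827, 1491, 2461, 2303 and 798 in control livers. Its control arrays were split, with control 5 at the level of the lesions, and it was not called in EPFs (-0.85 ± 0.21 SE, adjusted p = 0.00147) or CK-19+ nodules (-0.89 ± 0.21 SE, adjusted p = 0.00136), although both passed without control 5 (-1.11 and -1.15), as did CK-19+ nodules with the chip as a fixed block (-1.04).

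Of the 2 tested CYP2B genes, Cyp2b15 was called and Cyp2b3 was not. Cyp2b15 read 358, 325, 400.4, 410.3 and 336 in EPFs, 712, 835, 2526, 1210.4 and 1220.1 in CK-19+ nodules, 4546, 3596, 2879, 3999 and 3337 in CK-19- nodules, against 2569, 2812, 1995, 1479 and 3461 in control livers. The EPF arrays lay under all others, CK-19+ nodule 3 was within the control range, and CK-19- nodules lay in its upper part or above it. It fell 6.49-fold in EPFs (-2.70 ± 0.25 SE, adjusted p = 6.47e-09) and 2.02-fold in CK-19+ nodules (-1.01 ± 0.25 SE, adjusted p = 0.00208), and was 0.62 ± 0.25 (SE, adjusted p = 0.0982) in CK-19- nodules. The call in CK-19+ nodules was lost without CK-19+ nodule 1 or 2 or without control 1, 2 or 5 (-0.98 to -0.83). Cyp2b3, a CYP2B gene expressed in untreated liver, read 8259, 9676, 10565, 9909.8 and 11526 in EPFs, 12139, 12689, 12801, 13235 and 11712 in CK-19+ nodules, 14045, 15836, 14939, 13235 and 14045 in CK-19- nodules, against 15492, 14840.0, 14742, 14886 and 13758 in control livers. EPFs were below all control arrays by less than 2-fold (-0.57 ± 0.09 SE, adjusted p = 7.84e-06).

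Of the 5 CYP2C genes, Cyp2c7 and Cyp2c13 fell in EPFs and CK-19+ nodules and Cyp2c22, Cyp2c23 and Cyp2c24 were not called in any lesion. Cyp2c7, which in the rat hydroxylates retinoic acid, read 4897, 7778, 6859, 7231 and 9187 in EPFs, 3776, 2368, 10994, 17007 and 4314 in CK-19+ nodules, 33686, 34209.8, 35878, 38697 and 37123 in CK-19- nodules, against 39024, 34209.8, 42071, 40905 and 31219 in control livers. The EPF arrays lay from 4897 to 9187, whereas CK-19+ nodules spread from 2368 to 17007 (coefficient of variation 80.3%) and still stayed below control liver. The falls were 5.29-fold in EPFs (-2.40 ± 0.34 SE, adjusted p = 2.92e-06) and 6.3-fold in CK-19+ nodules (-2.66 ± 0.34 SE, adjusted p = 1.05e-06), with -0.05 ± 0.34 (SE, adjusted p = 0.937) in CK-19- nodules. A second probe of Cyp2c7 was under the signal limit.

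Cyp2c13, a steroid hydroxylase specific to male liver, read 6567, 3726, 7756, 9242 and 7263 in EPFs, 6747, 9878, 13526, 9789 and 8331 in CK-19+ nodules, 25071, 26901, 24624, 22294 and 22516 in CK-19- nodules, against 21403, 24092, 18818, 22017 and 29473 in control livers. EPFs and CK-19+ nodules overlapped and were lower than every CK-19- and control array, with -1.79 ± 0.19 (SE, adjusted p = 5.84e-08) and -1.28 ± 0.19 (SE, adjusted p = 9.08e-06) against control. Cyp2c22 read 29101, 30898, 35648, 29650.2 and 26428 in EPFs, 27914, 30437, 31747, 34664 and 33686 in CK-19+ nodules, 29650.2, 36692, 30898, 29101 and 34933 in CK-19- nodules, against 26428, 27214, 37123, 27479 and 34424 in control livers. All 4 groups overlapped. The 95% interval of the log2 fold change was -0.23 to 0.23 in EPFs, -0.16 to 0.29 in CK-19+ nodules and -0.14 to 0.31 in CK-19- nodules. These intervals leave out a 2-fold change of the signal in either direction. The brightest members, such as Cyp2c22 and Cyp2e1, lay close to the highest value of the series, 44882.6. Whether signals this bright still follow the amount of RNA was not tested. Cyp2c23, an arachidonic acid epoxygenase, had -0.61 ± 0.14 (SE, adjusted p = 0.000683) in EPFs and -0.45 ± 0.14 (SE, adjusted p = 0.0107) in CK-19+ nodules. Cyp2c24 had 0.35 ± 0.12 (SE, adjusted p = 0.0202) in CK-19+ nodules.

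All 4 CYP2D genes, relatives of the human drug-metabolising CYP2D6, fell in EPFs, and 3 of them fell in CK-19+ nodules. Cyp2d1, the rat debrisoquine hydroxylase, read 393, 424, 437, 456 and 467 in EPFs, 765, 628, 955, 1047 and 835 in CK-19+ nodules, 1619, 1660.2, 1601, 1273 and 1465 in CK-19- nodules, against 2292, 2051, 1513, 1719.7 and 1301 in control livers. The order EPFs, CK-19+ nodules and then both other groups held without overlap between these, and the log2 fold changes were -2.001 ± 0.14 (SE, adjusted p = 9.82e-11) in EPFs and -1.06 ± 0.14 (SE, adjusted p = 2.06e-06) in CK-19+ nodules. The second of these was under 2-fold without CK-19+ nodule 2 or control 1 (-0.96 in both cases). Cyp2d5 read 1379, 1519, 1799, 1734 and 1291 in EPFs, 1995, 1638, 2259, 2615 and 2183 in CK-19+ nodules, 4724, 4532, 5472, 5128 and 6003 in CK-19- nodules, against 5182, 6955, 5112, 5837 and 3541 in control livers. Its EPF arrays and those of CK-19+ nodules fell (-1.76 ± 0.15 SE, adjusted p = 1.84e-09 and -1.30 ± 0.15 SE, adjusted p = 2.63e-07), and CK-19- nodules overlapped control liver (-0.02 ± 0.15 SE, adjusted p = 0.961).

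Cyp2d2 read 10852, 11348, 12873, 15644 and 14009 in EPFs, 14340.1, 13798, 18240.0, 21251 and 16553 in CK-19+ nodules, 26901, 29939.8, 32537, 28085 and 28715 in CK-19- nodules, against 27479, 28495, 33953, 27334 and 28495 in control livers. It fell in EPFs (-1.18 ± 0.12 SE, adjusted p = 2.12e-08), and in CK-19+ nodules it was lower on every array by less than 2-fold (-0.81 ± 0.12 SE, adjusted p = 7.33e-06). Cyp2d4 had signals near the limit of 200 in EPFs and CK-19+ nodules, with 193, 185, 203, 221 and 207 in EPFs, 190.3, 191, 237, 189.9 and 167 in CK-19+ nodules, 309.7, 227, 323, 256 and 323 in CK-19- nodules, against 541, 567, 485, 366 and 386 in control livers. The falls of -1.20 ± 0.13 (SE, adjusted p = 6.28e-08) and -1.25 ± 0.13 (SE, adjusted p = 4.93e-08) in these lesions were lost when signals under 300 were raised to 300 (-0.62 in both).

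Cyp2e1, which oxidises ethanol and nitrosamines and is found mainly in pericentral hepatocytes, was not called in any lesion. It read 22854, 36902, 34933, 37123 and 36119 in EPFs, 13758, 27914, 27214, 31437 and 25704 in CK-19+ nodules, 39566, 40572, 38024, 34209.8 and 34664 in CK-19- nodules, against 40572, 36119, 32329.6, 38458 and 34933 in control livers. Apart from EPF 1, the EPF arrays were within the control range, and the arrays of CK-19+ nodules were all below it. The log2 fold change was -0.14 ± 0.17 (SE, adjusted p = 0.515) in EPFs, with a 95% interval of -0.49 to 0.21, -0.58 ± 0.17 (SE, adjusted p = 0.00704) in CK-19+ nodules, with -0.93 to -0.23, and 0.04 ± 0.17 (SE, adjusted p = 0.912) in CK-19- nodules.

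Cyp2j3, an arachidonic acid epoxygenase, and Cyp2t1 fell in EPFs alone among the comparisons with control. Cyp2j3 read 1494, 1924, 2148, 2219.8 and 2180.2 in EPFs, 4649.9, 3937, 6054, 5422 and 5214 in CK-19+ nodules, 7542, 7619, 6188, 7884 and 7826 in CK-19- nodules, against 7917, 8312, 6034, 6377 and 7686 in control livers. EPFs were far below all other arrays, and CK-19+ nodules overlapped control liver at 1 array. Its fall in EPFs was 3.65-fold (-1.87 ± 0.13 SE, adjusted p = 6.39e-11), against -0.53 ± 0.13 (SE, adjusted p = 0.00189) in CK-19+ nodules. Cyp2t1 read 386, 337, 303, 388 and 328 in EPFs, 898, 980.4, 1109, 1269.8 and 1067 in CK-19+ nodules, 1712, 1224, 1192, 1332 and 1345 in CK-19- nodules, against 1341, 1373, 1149, 1407 and 1331 in control livers. Its EPF arrays reached at most 388, below the 898 of the lowest other array, for a fall of 3.8-fold (-1.92 ± 0.11 SE, adjusted p = 4.62e-12), and CK-19+ nodules had -0.32 ± 0.11 (SE, adjusted p = 0.0224).

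Cyp2f4, the rat counterpart of the naphthalene-oxidising lung enzymes, read 703, 673, 601, 763 and 639.9 in EPFs, 464, 553, 764, 795 and 702 in CK-19+ nodules, 1253, 1018, 790.5, 1085 and 800.5 in CK-19- nodules, against 1592, 1431, 1469.6, 1400.2 and 1281 in control livers. It fell in EPFs (-1.09 ± 0.14 SE, adjusted p = 1.00e-06) and CK-19+ nodules (-1.16 ± 0.14 SE, adjusted p = 5.91e-07), and CK-19- nodules were all below control liver without reaching 2-fold (-0.56 ± 0.14 SE, adjusted p = 0.00957). Cyp2r1, a vitamin D hydroxylase, was not called (0.22, -0.22 and 0.01 in EPFs, CK-19+ and CK-19- nodules), nor was Cyp20a1 (0.33, 0.15 and 0.20).

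The CYP3A genes, which oxidise steroids and many drugs and are targets of the pregnane X receptor, were called lower most often in CK-19+ nodules, with all 4 tested, beside 3 in EPFs and 1 in CK-19- nodules. Cyp3a9 read 504, 929, 965, 906 and 739 in EPFs, 288, 485, 649, 814 and 339.9 in CK-19+ nodules, 796, 2157, 2382, 1634 and 1644 in CK-19- nodules, against 6922, 7369.7, 5309, 3403 and 5361 in control livers. Every lesion array was below every control array, and CK-19+ nodules overlapped EPFs. It fell 6.96-fold in EPFs (-2.80 ± 0.29 SE, adjusted p = 3.79e-08), 11.5-fold in CK-19+ nodules (-3.52 ± 0.29 SE, adjusted p = 1.67e-09) and 3.39-fold in CK-19- nodules (-1.76 ± 0.29 SE, adjusted p = 0.000192). The last call was lost within chip 1 (-2.12, adjusted p = 0.058, 1 CK-19- nodule against 2 controls) and within chip 2 (-1.72, adjusted p = 0.303, 4 against 1), with the lone array taken to vary like the others.

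Cyp3a23-3a1 read 8244, 8352, 10969.6, 10764 and 10295 in EPFs, 805, 1724, 2011, 3981 and 1842 in CK-19+ nodules, 11451, 14340.1, 11451, 7792 and 9789 in CK-19- nodules, against 23599.6, 25542, 18737, 11673 and 16204 in control livers. CK-19+ nodules stood apart from all other arrays, whereas EPFs lay just below the lowest control and CK-19- nodules overlapped the control range. Its log2 fold change was -3.33 ± 0.28 (SE, adjusted p = 1.96e-09) in CK-19+ nodules, a 10.1-fold fall, and -0.93 ± 0.28 (SE, adjusted p = 0.007) in EPFs, which became -1.10 and passed 2-fold without control 4. In CK-19- nodules it was -0.78 ± 0.28 (SE, adjusted p = 0.0598). A second, dimmer probe of this gene gave -3.75 in CK-19+ nodules, -0.45 in EPFs and -1.19 in CK-19- nodules (adjusted p = 0.0307), so that the probes differ on the call in CK-19- nodules.

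Cyp3a2, a male-predominant testosterone hydroxylase, read 4864, 1682, 8034, 10027 and 6538 in EPFs, 858, 3999, 4511, 9633 and 2199.8 in CK-19+ nodules, 17343, 22414, 22854, 19371 and 17424 in CK-19- nodules, against 20067, 25898, 17493, 17424 and 26057 in control livers. EPFs and CK-19+ nodules varied widely from array to array and were nonetheless below all control arrays (-1.98 ± 0.46 SE, adjusted p = 0.000849 and -2.72 ± 0.46 SE, adjusted p = 3.76e-05), while CK-19- nodules overlapped control liver (-0.09 ± 0.46 SE, adjusted p = 0.919). Cyp3a18 read 309, 237, 318, 316 and 322 in EPFs, 474, 344, 542, 576 and 371 in CK-19+ nodules, 1020.4, 1304, 997, 751 and 1004 in CK-19- nodules, against 1905, 1926, 1568, 978 and 1055 in control livers. EPFs were lowest and CK-19+ nodules next, with falls of -2.26 ± 0.19 (SE, adjusted p = 1.32e-09) and -1.66 ± 0.19 (SE, adjusted p = 2.06e-07), and the value in CK-19- nodules was -0.51 ± 0.19 (SE, adjusted p = 0.0672).

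The CYP4A genes encode fatty acid omega-hydroxylases, classic targets of PPAR alpha, and lie together on chromosome 5. Cyp4a2 read 2199.8, 2368, 2334, 2475 and 1776 in EPFs, 249, 377, 573, 879 and 521 in CK-19+ nodules, 2491, 7291, 2689, 3986 and 1243 in CK-19- nodules, against 3942, 4395, 5472, 5009.8 and 4297 in control livers. EPFs lay below all controls and within the range of CK-19- nodules, CK-19+ nodules were lower than all others, and CK-19- nodules were spread widely, nodule 2 above all controls. It fell 9.63-fold in CK-19+ nodules (-3.27 ± 0.33 SE, adjusted p = 3.11e-08) and 2.07-fold in EPFs (-1.05 ± 0.33 SE, adjusted p = 0.00908), the second call being lost without EPF 5 (-0.97) or control 3 (-0.99). In CK-19- nodules the value was -0.62 ± 0.33 (SE, adjusted p = 0.22).

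Cyp4a3 read 8226, 11485, 8509.8, 8529.6 and 6936 in EPFs, 974, 1247, 1796, 4097 and 2599.9 in CK-19+ nodules, 7263, 11278, 5817, 8134 and 5897 in CK-19- nodules, against 12658, 13704, 10295, 11058 and 6040.2 in control livers. CK-19+ nodules were again below all other arrays (5.52-fold, -2.47 ± 0.29 SE, adjusted p = 3.68e-07), and both other lesions overlapped control liver (-0.27 ± 0.29 SE, adjusted p = 0.464 in EPFs and -0.48 ± 0.29 SE, adjusted p = 0.298 in CK-19- nodules). Cyp4a8 read 129.7, 142, 146, 142 and 131 in EPFs, 164, 179, 295, 201 and 162 in CK-19+ nodules, 138, 286, 315, 387 and 293 in CK-19- nodules, against 439.8, 357, 427, 299 and 220.2 in control livers. All EPF arrays were under 200, so that its fall was at least 1.69-fold with EPFs set to 200 (as measured -1.29 ± 0.22 SE, adjusted p = 3.52e-05), and the call was lost when signals under 300 were raised to 300 (-0.26). In CK-19+ nodules it was -0.79 ± 0.22 (SE, adjusted p = 0.00537), and called with the chip as a fixed block (-1.07) and within chip 1 (-1.02). Cyp4a1 was not called by its brighter probe (-0.31, -0.46 and -0.19 in EPFs, CK-19+ and CK-19- nodules), and its second probe gave 0.34, -0.91 and -0.89, also under 2-fold.

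In the CYP4F group on chromosome 7, whose enzymes hydroxylate leukotrienes and long fatty acids, Cyp4f4 and Cyp4f1 fell in EPFs and none of the 5 tested genes was called in either kind of nodule. Cyp4f4 read 1715, 1738, 2068, 2654 and 2019 in EPFs, 3949.8, 3848, 6501, 5361 and 4574 in CK-19+ nodules, 7291, 8089, 8278, 7861 and 7901 in CK-19- nodules, against 6236, 6776, 7168, 6652 and 6662 in control livers. EPFs did not overlap any other group, CK-19+ nodules reached the control range with 1 array, and CK-19- nodules were above all controls. The log2 fold changes were -1.73 ± 0.13 (SE, adjusted p = 2.04e-10) in EPFs, -0.49 ± 0.13 (SE, adjusted p = 0.00319) in CK-19+ nodules and 0.24 ± 0.13 (SE, adjusted p = 0.236) in CK-19- nodules. Cyp4f1 read 2073, 1411, 2143, 2453 and 2498 in EPFs, 1917, 2033, 2596, 2455 and 2254 in CK-19+ nodules, 2727, 3333, 4673, 4162 and 4120.3 in CK-19- nodules, against 4177, 4263, 4705, 4939.7 and 4169 in control livers. EPFs and CK-19+ nodules overlapped and had -1.10 ± 0.15 (SE, adjusted p = 1.75e-06) and -0.99 ± 0.15 (SE, adjusted p = 9.86e-06), on either side of 2-fold, and the call in EPFs was lost without EPF 2 (-0.96). That in CK-19+ nodules was gained without CK-19+ nodule 3 or 4 or control 1, 2 or 5 (-1.04 to -1.004).

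Cyp4f6 was lower in both (-0.87 in EPFs and -0.84 in CK-19+ nodules) without a call. Cyp4f5 ran the other way, with 218 to 254 in EPFs, 233 to 299 in CK-19+ nodules and 157 to 232 in CK-19- nodules, against 127 to 164 in control livers. Its control arrays were all under 200, and its log2 fold changes of 0.69 in EPFs and 0.79 in CK-19+ nodules were not calls. They became 2.38 and 2.58 and passed 2-fold when the 10% point of all values was subtracted as background. The arrays above 200 were those of EPFs and CK-19+ nodules and CK-19- nodule 5. Cyp4f5 thus entered the tested genes through these lesions, and its rise there is a description. Cyp4f40 had -0.50 in EPFs and -0.43 in CK-19+ nodules. All arrays of both lesions were under 200, so that the fall was at least 1.13-fold with each of them set to 200. Its arrays above 200 were of control livers and CK-19- nodules only. Cyp4f40 thus entered the tested genes through these groups, and its fall is a description. Cyp4b1 was not called (0.69 ± 0.29 SE, adjusted p = 0.0471 in EPFs), with EPF 2 at 2045 and EPF 3 at 1057 against 339.5 to 696 in control livers.

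Outside the drug and fatty acid enzymes, Cyp17a1, the hydroxylase and lyase of androgen synthesis, rose in EPFs. It read 2102, 2195, 1487, 815 and 1419 in EPFs, 183, 175, 226, 344 and 222 in CK-19+ nodules, 269, 225, 317, 414 and 426 in CK-19- nodules, against 214, 211, 222, 196 and 314 in control livers. The lowest EPF array was above every other array of the series, and the other 3 groups overlapped each other. The rise was 6.64-fold (2.73 ± 0.23 SE, adjusted p = 2.06e-09), with -0.03 ± 0.23 (SE, adjusted p = 0.925) in CK-19+ nodules and 0.49 ± 0.23 (SE, adjusted p = 0.167) in CK-19- nodules, and it was kept under every alternative that was run. Cyp26a1, which clears retinoic acid, had 168 to 245 in EPFs, 210.1 to 470.0 in CK-19+ nodules and 247 to 381 in CK-19- nodules, against 154 to 188 in control livers. Both kinds of nodules were above all control arrays, by less than 2-fold (0.87 ± 0.17 SE and 0.73 ± 0.17 SE). The first passed 2-fold at 1.01 without CK-19+ nodule 2, and with control set to 200 the values were at least 1.55-fold and 1.41-fold. The 11 arrays above 200 were those of both kinds of nodules and EPF 2. Cyp26a1 thus entered the tested genes through nodules, and its rise there is a description.

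**Figure D2:**
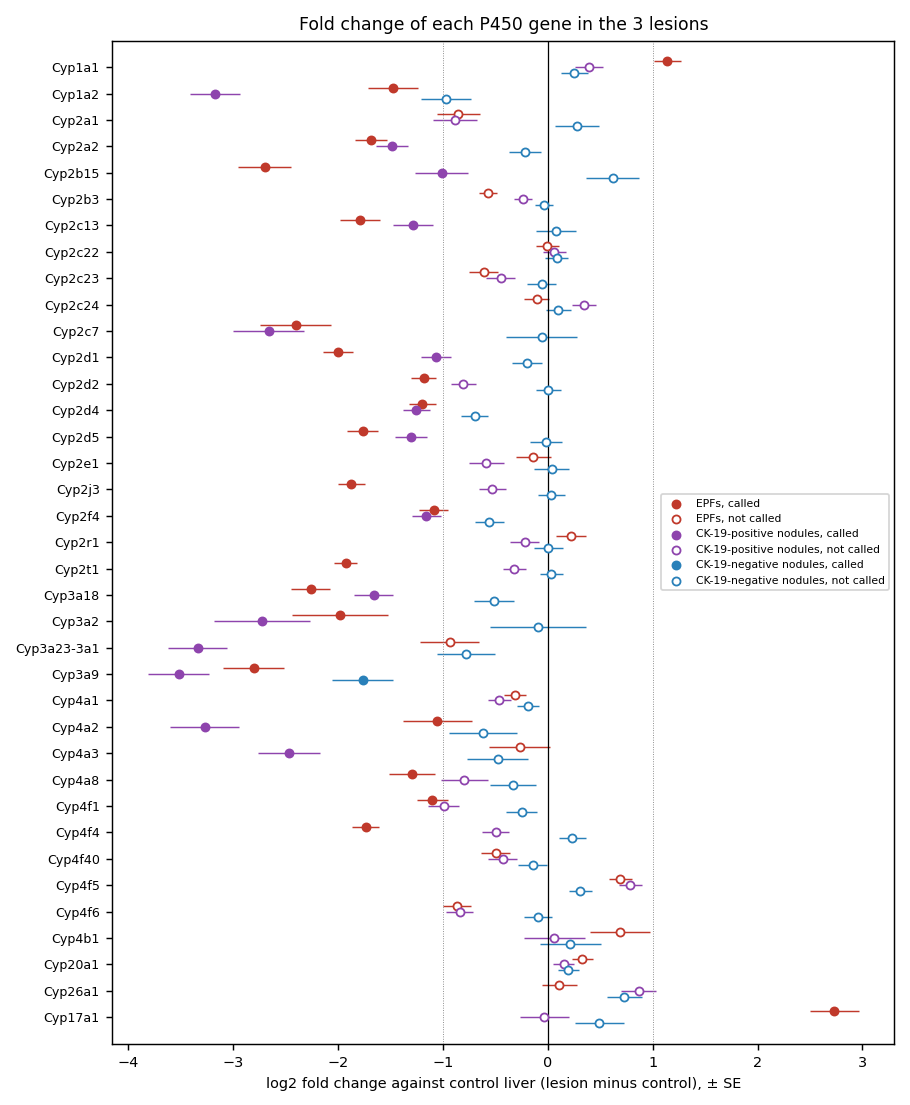
Log2 fold change against control liver (x axis, ± SE, n = 5 arrays per group) of the 37 tested P450 genes (y axis, by subfamily) in EPFs, CK-19+ and CK-19- nodules; filled points are called and dotted lines mark 2-fold. Red and purple points lie mostly left of 0, the blue points of CK-19- nodules lie near 0 with Cyp3a9 filled, and Cyp17a1 in EPFs lies far to the right at 2.73.

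The 22 members that were not tested included the CYP11 genes, Cyp19a1 and Cyp21a1, which make steroid hormones in the adrenal and the gonads (Cyp11a1, Cyp11b1, Cyp11b2 and Cyp11b3). The remaining ones were Cyp1b1, Cyp24a1, Cyp26b1, Cyp2a3, Cyp2b12, Cyp2b21, Cyp2g1, Cyp2j10, Cyp2s1, Cyp2u1, Cyp39a1, Cyp46a1, Cyp4f17, Cyp4f18, Cyp4f37 and Cyp4v3. Their highest signals over the 20 arrays lay between 150.4 and 245.5, and 19 of them had no array above 200. Just outside the limit were Cyp26b1, with 3 arrays above 200 and 245.5 at most, and Cyp2b12 and Cyp11b1, with 1 array each (205 and 201). No difference between groups was tested for them.

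Within a lesion, single arrays were highest or lowest for many members at once. CK-19+ nodule 4 had the highest signal of its group for 20 of the 37 tested members, and nodule 1 had the lowest for 16 and the highest for none. Over all genes tested, nodule 4 was highest for 20.1% and nodule 1 lowest for 22.6%. Among EPFs, array 4 was highest for 17 members (22.2% of all genes) and array 1 lowest for 16 (22%). The median coefficient of variation of the tested members was 13.6% in EPFs, 19.3% in CK-19+ nodules, 14.7% in CK-19- nodules and 14.2% in control livers, and the widest within CK-19+ nodules were those of Cyp2c7 (80.3%) and Cyp3a2 (78.9%).

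EPFs and CK-19+ nodules, the lesions with most calls, were then compared directly. Of the 37 tested members, 5 were higher in EPFs (2.74% of all genes) and 4 were lower (3.43%, and 6.16% in either direction). The 5 higher ones were Cyp17a1 (2.76 ± 0.23 SE, adjusted p = 7.83e-09), Cyp3a23-3a1 (2.40 ± 0.28 SE, adjusted p = 4.93e-07), Cyp4a2 (2.22 ± 0.33 SE, adjusted p = 9.97e-06), Cyp4a3 (2.20 ± 0.29 SE, adjusted p = 2.79e-06) and Cyp1a2 (1.69 ± 0.24 SE, adjusted p = 5.86e-06). The 4 lower ones were Cyp2b15 (-1.69 ± 0.25 SE, adjusted p = 1.05e-05), Cyp2t1 (-1.61 ± 0.11 SE, adjusted p = 4.73e-10), Cyp2j3 (-1.34 ± 0.13 SE, adjusted p = 3.54e-08) and Cyp4f4 (-1.24 ± 0.13 SE, adjusted p = 1.01e-07). In all 9 the arrays of the 2 lesions did not overlap. Without overlap were 6 members higher in EPFs (18.5% of all genes) and 9 lower (18.6%). For the 10 other members called in both lesions (Cyp2a2, Cyp2c7, Cyp2c13, Cyp2d1, Cyp2d4, Cyp2d5, Cyp2f4, Cyp3a2, Cyp3a9 and Cyp3a18), the direct differences lay between -0.94 (Cyp2d1) and 0.74 (Cyp3a2) and were not called, Cyp2d1 passing at -1.04 without CK-19+ nodule 2, and Cyp3a2 at 1.16 without EPF 2 or 1.14 without CK-19+ nodule 4. The second Cyp4a1 probe was called higher in EPFs (1.25, adjusted p = 5.84e-06), which its brighter probe was not (0.15).

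**Figure D3:**
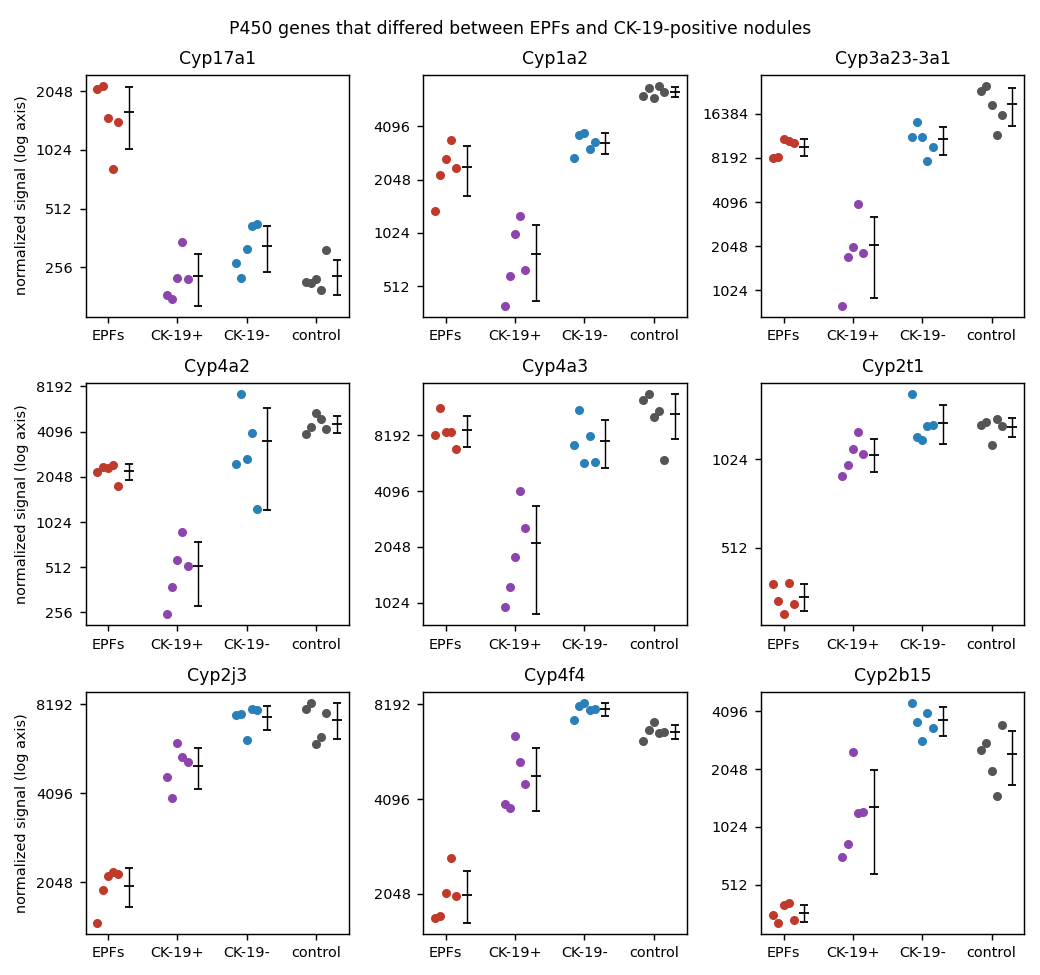
Normalized signal (y axes, log scale) of the 9 P450 genes called between EPFs and CK-19+ nodules, with 1 point per array in EPFs, CK-19+ and CK-19- nodules and control liver; bars give mean ± SD of 5 arrays. In Cyp1a2, Cyp3a23-3a1, Cyp4a2 and Cyp4a3 the CK-19+ nodules are the lowest group, in Cyp2t1, Cyp2j3, Cyp4f4 and Cyp2b15 the EPFs are, and Cyp17a1 is high in EPFs alone.

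The 2 kinds of nodules, taken at the same time after PH, differed in 13 of the 37 tested members, all lower in CK-19+ nodules (2.39% of all genes). No member was higher (also 2.39% of all genes, and 4.79% in either direction), and at an unadjusted p under 0.05 there were 29 lower and 1 higher. The differences were -2.65 ± 0.33 (SE, adjusted p = 2.30e-06) for Cyp4a2, -2.63 ± 0.46 (SE, adjusted p = 0.000136) for Cyp3a2 and -2.60 ± 0.34 (SE, adjusted p = 4.70e-06) for Cyp2c7. They were -2.56 ± 0.28 (SE, adjusted p = 5.64e-07) for Cyp3a23-3a1, -2.19 ± 0.24 (SE, adjusted p = 5.28e-07) for Cyp1a2 and -1.99 ± 0.29 (SE, adjusted p = 2.01e-05) for Cyp4a3. Cyp3a9, Cyp2b15, Cyp2c13, Cyp2d5, Cyp2a2, Cyp2a1 and Cyp3a18 followed with -1.75, -1.63, -1.36, -1.28, -1.27, -1.17 and -1.15. For 21 of the 37 members all arrays of CK-19+ nodules lay below those of CK-19- nodules (9.23% of all genes), and for 1 they lay above (9.64%). Within chip 1, the only chip with both kinds and with a single CK-19- nodule, 8 of the 13 calls were made, and those of Cyp4a2 (-1.38), Cyp4a3 (-1.65), Cyp3a2 (-2.45), Cyp2c7 (-2.65) and Cyp2b15 (-1.51) missed the adjusted p. Cyp2d1 (-0.86) was called with the chip as a fixed block (-1.03).

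EPFs against CK-19- nodules gave 14 lower members (4.79% of all genes) and 1 higher, Cyp17a1 (4.13%, and 8.92% in either direction). Without overlap were 20 members lower in EPFs (19.2% of all genes) and 2 higher (19.8%). The lowest were Cyp2b15 (-3.32 ± 0.25 SE, adjusted p = 5.37e-10), Cyp2c7 (-2.35 ± 0.34 SE, adjusted p = 5.33e-06), Cyp4f4 (-1.97 ± 0.13 SE, adjusted p = 7.09e-11) and Cyp2t1 (-1.96 ± 0.11 SE, adjusted p = 8.38e-12), and Cyp17a1 had 2.24 ± 0.23 (SE, adjusted p = 7.07e-08). Then came Cyp2j3, Cyp3a2, Cyp2c13, Cyp2d1, Cyp2d5, Cyp3a18, Cyp2a2, Cyp2d2 and Cyp2a1, between -1.90 and -1.13, and Cyp3a9 with -1.04, whose call was lost without EPF 1 or CK-19- nodule 2 or 3 (-0.93 to -0.88). By their brightest probes none of the 4 CYP4A genes was called here (highest 0.21 for Cyp4a3), but the second Cyp4a1 probe was called higher in EPFs (1.23, adjusted p = 4.92e-06). Cyp4a8 was lower in EPFs by at least 1.34-fold with EPFs set to 200 (as measured -0.96, or -1.20 and called without CK-19- nodule 1). Cyp1a1, which entered the tested genes through its EPF signals, was higher by at least 1.51-fold with CK-19- nodules set to 200. As measured the difference was 0.89 ± 0.13 (SE), or 1.02 without EPF 1, and it is a description.

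Of the electron donors, Por rose in each kind of lesion. Por, the flavoprotein that passes electrons from NADPH to every microsomal P450, read 3528, 4719, 3956, 3244 and 3069.9 in EPFs, 4797, 4870.3, 5175, 6165 and 5519 in CK-19+ nodules and 3412, 3232, 4249, 2360.2 and 3425 in CK-19- nodules, against 1381, 1428, 1516, 1556 and 1580.2 in control livers. All 15 lesion arrays were above all 5 control arrays, and Por rose in EPFs (1.30, adjusted p = 2.37e-08), CK-19+ nodules (1.83, adjusted p = 1.85e-10) and CK-19- nodules (1.14, adjusted p = 2.10e-06). Cyb5r3, the reductase of cytochrome b5, read 496, 361, 538, 696 and 602 in EPFs, 1408, 1015, 1356, 1124 and 1172 in CK-19+ nodules and 1552, 1074, 1776, 1658 and 2211 in CK-19- nodules, against 2060.5, 1492, 2126, 2230.5 and 1738 in control livers. It was lowest in EPFs, where it fell (-1.86, adjusted p = 7.87e-09), also against CK-19+ nodules (-1.20). Cytochrome b5 itself (Cyb5a) was at 26940.2 ± 1710.5 in EPFs, 28032 ± 2732 in CK-19+ nodules, 28097 ± 1851 in CK-19- nodules and 27386 ± 2578 in control livers (mean ± SD, n = 5 each), with overlapping arrays. The progesterone receptor membrane components, which bind P450 enzymes, moved apart in CK-19+ nodules, where Pgrmc1 rose (1.07) and Pgrmc2 fell (-1.03). Among the 6 tested partners, 1 rose and 1 fell in EPFs (6.26% and 6.15% of all genes), 2 rose and 1 fell in CK-19+ nodules (4.95% and 4.9%) and 1 rose in CK-19- nodules (1.29%).

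**Figure D4:**
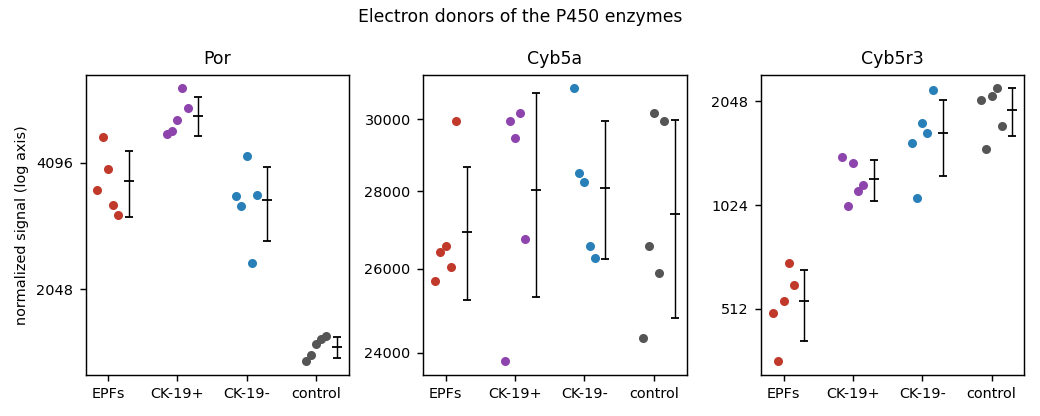
Normalized signal (y axes, log scale) of Por, Cyb5a and Cyb5r3 with 1 point per array in EPFs, CK-19+ and CK-19- nodules and control liver; bars give mean ± SD of 5 arrays. Por is higher in each lesion than in control liver, Cyb5a overlaps in all groups, and Cyb5r3 is lowest in EPFs.

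The counts of calls in this and the following lists stand against 6.26% of all genes called higher and 6.15% lower in EPFs, 4.95% and 4.9% in CK-19+ nodules and 1.29% and 0.656% in CK-19- nodules. Heme synthesis and breakdown were covered by 9 tested genes, with Hmox1, Hmox2, Blvra and Blvrb being those of breakdown. None of the 9 was called in EPFs or CK-19- nodules and 1 in CK-19+ nodules (Alad, an enzyme of heme synthesis, -1.002). Without the 2-fold limit, 4 were lower and 1 higher in EPFs at an adjusted p under 0.05 (27.7% and 28.3% of all genes), among them Fech, which inserts the iron, at -0.92 (adjusted p = 4.64e-07) and Alad at -0.75 (adjusted p = 3.63e-05). In CK-19+ nodules 2 were lower and 2 higher (22.6% and 23.4%), and in CK-19- nodules 1 and 1 (7.36% and 8.77%). These counts include breakdown genes, with Hmox2 lower in EPFs (-0.47) and CK-19+ nodules (-0.23) and Blvrb higher in CK-19+ nodules (0.61). In CK-19- nodules the lower gene was Hmox1 (-0.72) and the higher one Blvrb (0.50), both of heme breakdown. Of the 11 tested xenobiotic receptors and partners, Nr1h4 (FXR, the bile acid receptor) fell in EPFs (-1.03) and CK-19+ nodules (-1.35), and Nr0b2 (SHP, a corepressor it induces) fell in EPFs, where all arrays were under 200, by at least 2.22-fold with EPFs set to 200 (as measured -1.44). Nr1i3 (CAR, the constitutive androstane receptor) rose in CK-19+ (1.01) and CK-19- nodules (1.02), with -0.29 in EPFs. Nr1i2 (the pregnane X receptor) was not called, with 0.44 (adjusted p = 0.000862) in EPFs, -0.24 in CK-19+ and 0.18 in CK-19- nodules. Ahr (the aryl hydrocarbon receptor) was not called either, with -0.58 (adjusted p = 0.0398) in EPFs, -0.14 in CK-19+ and -0.40 in CK-19- nodules. Ppara was under the signal limit and was not tested. Of the 10 tested hepatocyte transcription factors of P450 genes, 4 fell in CK-19+ nodules: Onecut1 (HNF6, -2.24), Foxa3 (-1.52), Cebpa (-1.38) and Foxa1 (-1.03). In EPFs 1 fell (Onecut1, -1.07 ± 0.376 SE, adjusted p = 0.019), with wide spreads of 1472.4 ± 829.6 against 3219.5 ± 2022.7 in control livers (mean ± SD). In CK-19- nodules 1 fell, just past 2-fold (Foxa3, -1.001 ± 0.15 SE).

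Since many P450 genes are used mainly by pericentral hepatocytes, genes of both liver zones other than P450 were set beside them. Of 10 tested pericentral genes, 4 fell and 1 rose in EPFs and in CK-19+ nodules, with values in EPFs and CK-19+ nodules of -2.50 and -2.998 for Oat (ornithine aminotransferase), -2.16 and -1.38 for Rgn (regucalcin), -1.47 and -2.10 for Gulo (vitamin C synthesis) and, as the one that rose, 1.45 and 2.23 for Rhbg (an ammonium transporter). Of 13 tested periportal genes, 2 fell and 1 rose in EPFs and 3 fell in CK-19+ nodules, with Pigr (-1.81) and Apof (-1.64) lower in EPFs, and Pck1 (-1.58) and Hal (-1.54) lower in CK-19+ nodules. The median log2 fold change of the pericentral list was -0.64 in EPFs and -0.68 in CK-19+ nodules, and that of the periportal list -0.12 and -0.66, beside -0.02 and -0.01 for all genes. In CK-19- nodules, whose P450 median was -0.03, the pericentral median was -0.44, with Gulo lower (-1.09) and Rhbg higher (1.71), and the periportal median -0.04, with Hal lower (-1.001) and Sds, a serine-degrading enzyme, higher (1.80). Markers of other cells moved with these lesions too. Of 5 biliary and oval cell markers 4 rose in EPFs, 3 in CK-19+ nodules and 2 in CK-19- nodules, and Hba-a1 and Hbb of red blood cells fell in all 3. Of 5 Kupffer cell and macrophage markers, Marco alone was called, lower in EPFs (-2.16), CK-19+ nodules (-2.24) and CK-19- nodules (-1.73). Cd163, C1qa, C1qb and Ptprc were not called, the median of the 5 was -0.80 in EPFs, -0.05 in CK-19+ nodules and -0.41 in CK-19- nodules, and their summed signal was 4173 to 5609 in EPFs, 6364 to 11303 in CK-19+ nodules and 4636 to 6399 in CK-19- nodules, against 6654 to 12261 in control livers. Neither of the 2 tested endothelial markers was called, and of 5 stellate cell and fibroblast markers 1 rose in EPFs and 2 in CK-19+ nodules. The hepatocyte marker sum in EPFs lay within the control range, which was wide, and that in CK-19+ nodules in its upper part or above it. The highest EPF sum, 169410, was below the control median of 175016, and the EPF median was 154385.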

How the data were processed

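Gene expression was measured on 1-colour Illumina RatRef-12 arrays, 20 in all. The intensity values were loaded by the authors into BeadStudio (3.0.19.0 in the submitters' processing notes) and BRB Array Tools and quantile-normalized, and the deposited intensities are on a linear scale, with the background step not given in the sources used here. A table before normalization, with 40 value columns that could be tied to no sample by name, was not used here. Depth has no counterpart on arrays, and the number of arrays limits the precision.

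Log2 intensities were fitted with limma 3.58.1 in R 4.3.3 (lmFit and eBayes, 4 group means, 20 arrays in 1 fit), with Benjamini-Hochberg adjustment over 6102 genes whose signal exceeded 200 on at least 5 arrays. The brightest probe by mean signal stood for a gene. A call required an adjusted p under 0.05 and at least 2-fold. Fold changes near background understate the change, and where all arrays of a group were under 200 that group was set to 200 for a lower bound. Of 22523 probes, 13793 had 1 gene and 8730 were not named. All 59 members matched the RefSeq gene table, and 47 had a start region in its GRCr8 promoter table. The fit was tested on simulated data. Replicate numbers 1 to 5 are names in the order of the sample list. Python 3.11.15 and matplotlib 3.10.9 served for tables and figures.

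Values per array are given for members called against control or between lesions and for the brightest member of a family, and for other lists up to 4 called genes with the largest change. Cyb5a, Fech, Sds, Ppara, the Kupffer cell markers other than Marco and the counts of highest and lowest arrays were added after the values were seen. So were Nr1i2, Ahr, the heme breakdown genes and the counts of hepatocyte markers without the 2-fold limit. The members and lists were chosen with earlier results of these data known. Alternatives changed the signal limit, the scale, the floor, the background, the probes, the chip, the arrays in the fit and the test.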

Additional observations from a re-analysis of the deposited data

Results flagged for a closer look

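In 12 of the 148 groups of 5 arrays checked (37 tested members in 4 groups), 1 array lay far from the other 4 by Dixon's criterion, where chance gives about 7.4. In control livers these were array 5 for Cyp17a1 (313.8) and Cyp2r1 (423.8), both high, and array 3 for Cyp2d2 (33952.6, high). In EPFs they were array 2 for Cyp26a1 (245.1, high) and Cyp3a18 (236.9, low), array 1 for Cyp2e1 (22853.5, low) and array 3 for Cyp4a1 (373.7, high). In CK-19+ nodules they were array 3 for Cyp2b15 (2526.2, high) and array 5 for Cyp4f5 (298.6, high). In CK-19- nodules they were array 1 for Cyp26a1 (381.4) and Cyp2r1 (329.3), both high, and array 3 for Cyp2j3 (6188.3, low). They were spread over 9 of the 20 arrays. Without the Cyp2b15 array, CK-19+ nodule 3, the log2 fold change of that gene against control was -1.29 in place of -1.01.

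EPFs and CK-19+ nodules differed in a direct test for 9 members, each as EPFs minus CK-19+ nodules on the log2 scale. The differences were 2.76 for Cyp17a1, 2.40 for Cyp3a23-3a1, 2.22 for Cyp4a2, 2.20 for Cyp4a3 and 1.69 for Cyp1a2, all higher in EPFs. They were -1.69 for Cyp2b15, -1.61 for Cyp2t1, -1.34 for Cyp2j3 and -1.24 for Cyp4f4, all lower in EPFs. The chip and the time since 2-AAF and PH differ between these lesions in the same way and cannot be told apart from the lesion.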

How the results depend on the processing

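Over the 6 comparisons 74 calls of members were made, and 59 of them were kept under every alternative in which the gene was tested. Leaving out 1 array lost 5 and another alternative 12, with 2 lost under both kinds, and no call changed direction. The count of members called with 1 array left out ranged from 20 to 22 in EPFs, 14 to 16 in CK-19+ nodules and 1 to 2 in CK-19- nodules against control. It ranged from 9 to 10 between EPFs and CK-19+ nodules, 13 to 13 between the 2 kinds of nodules and 14 to 16 between EPFs and CK-19- nodules. In CK-19- nodules against control, where 1 member was called, subtracting the 10% point of all values as background gave 6 (3 higher, 3 lower), and within chip 1 and within chip 2 the count was 0. Within chip 1, CK-19+ against CK-19- nodules gave 8 in place of 13. Without CK-19- nodule 2 or 3 the second call in CK-19- nodules was Cyp1a2. Subtracting the 10% point added 25 calls over the 6 comparisons and removed none, whereas adding 50 removed 3 and raising signals under 300 to 300 removed 4. The chip as a fixed block, without EPFs, added 3 calls (Cyp2a1, -1.04, and Cyp4a8, -1.07, in CK-19+ nodules and Cyp2d1, -1.03, between nodules). The chip as a random block, other signal limits and fits of only the groups compared changed no call of a tested member. With every probe tested by itself the brightest probes kept their calls, but second probes were called where the brightest were not, for Cyp3a23-3a1 in CK-19- nodules (-1.19) and Cyp4a1 in EPFs against CK-19+ (1.25) and CK-19- nodules (1.23). The methods' t-test with Benjamini-Hochberg adjustment removed 1 (Cyp2b15 in CK-19+ nodules, adjusted p = 0.0664) and without adjustment none. No paired analysis was possible because the replicate label is shared by every array within a group and no rat is named. Rescaling from the table before normalization was not run, since its columns match no sample. Dim members such as Cyp1a1, Cyp2d4, Cyp4a8 and Cyp4f5 have signals near background, where the size of a change depends on how background is treated.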
